A study of Rattus norvegicus with 6 samples.

Results

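Collagen chain transcripts were examined in rat hearts under pressure load and after its relief. The members are the rows of the array table whose platform symbol is Col, a number, the letter a and a number. There were 20 such rows for 20 genes, 1 row per gene, among 23188 rows tested. They comprised 8 fibrillar chains (Col1a1, Col1a2, Col2a1, Col3a1, Col5a1, Col5a3, Col11a1 and Col11a2), 2 basement membrane chains (Col4a1 and Col4a4), 1 chain of type VI (Col6a2), 3 fibril-associated chains (Col9a1, Col9a2 and Col14a1) and 6 others (Col8a1, Col13a1, Col15a1, Col18a1, Col23a1 and Col26a1). Cultured fibroblasts are named as the RNA source in the extraction protocol, and whole heart in every other field. RNA of whole hearts from male Sprague-Dawley rats, 10 weeks old, was hybridised to 6 Clariom S Rat arrays, with 2 arrays for each of the groups normal, TAC and TAC-R. TAC (transverse aortic constriction) was made by tying a silk thread around the transverse aorta over a 21-gauge blunt needle that was then withdrawn, and TAC-R hearts had been released from it. Sham-operated rats, with no thread tied, also appear in the protocol, but nothing ties them to the normal hearts. No source used here gives how long TAC lasted, how long after release the hearts were taken, or whether each array is its own animal, so p-values cover no more than array-to-array spread, perhaps only technical.

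Collagens are the main structural proteins of the extracellular matrix, each made of chains wound into a triple helix. In the heart, fibroblasts make most of the fibrillar collagen, and types I and III form the fibres that tie muscle cells together and stiffen the wall when they accumulate under load. Type IV forms the sheet-like network of the basement membrane around muscle cells and capillaries, type VI forms beaded microfibrils near cells, and fibril-associated collagens decorate the surface of the fibres.

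On the arrays labelled TAC-R, Col3a1, Col1a2, Col6a2 and Col15a1 fell against the arrays labelled TAC, the first pair 3.30-fold and 3.15-fold. These 4 calls rest on the full set of arrays: none of them was made when any 1 array was left out. No chain passed the test on the TAC arrays against the normal arrays, or on the TAC-R arrays against the normal arrays. Col1a1, Col1a2, Col3a1, Col6a2 and Col15a1 had their highest signals on the TAC arrays, intermediate ones on the normal arrays and their lowest on the TAC-R arrays, with no overlap between groups. Col4a4, in the background, held this order too. Col15a1 was in the background on the normal and TAC-R arrays, and Col6a2 on the TAC-R arrays and 1 normal array. The order was held by 2.3% of all rows and was chosen for counting after the values were seen. The remaining chains, like Col1a1 and Col4a4, did not pass in any comparison, and most of them lay in the background.

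The signals are deposited log2 values, and a difference of 1 log2 unit is a doubling. The files hold no detection calls, so background was taken as the 95th percentile of the 1153 negative control rows of each array, which ranged from 8.09 to 8.55. By this measure Col1a1, Col1a2 and Col3a1 lay above background on all 6 arrays. Col6a2, Col15a1, Col14a1 and Col5a1 did so on some arrays, and 13 chains on none. Of all rows tested, 22.6% were above background on all arrays and 70.5% on none. For a chain below background in both groups the size of a difference is not measured. Where the dimmer group alone is below, the difference is a bound, computed against the higher of the chain's own signal and the percentile on each dim array. Levels of different chains come from different probes and were not compared with each other. In bulk tissue, fewer cells of a type and less RNA per cell cannot be told apart.

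**Figure D1:**
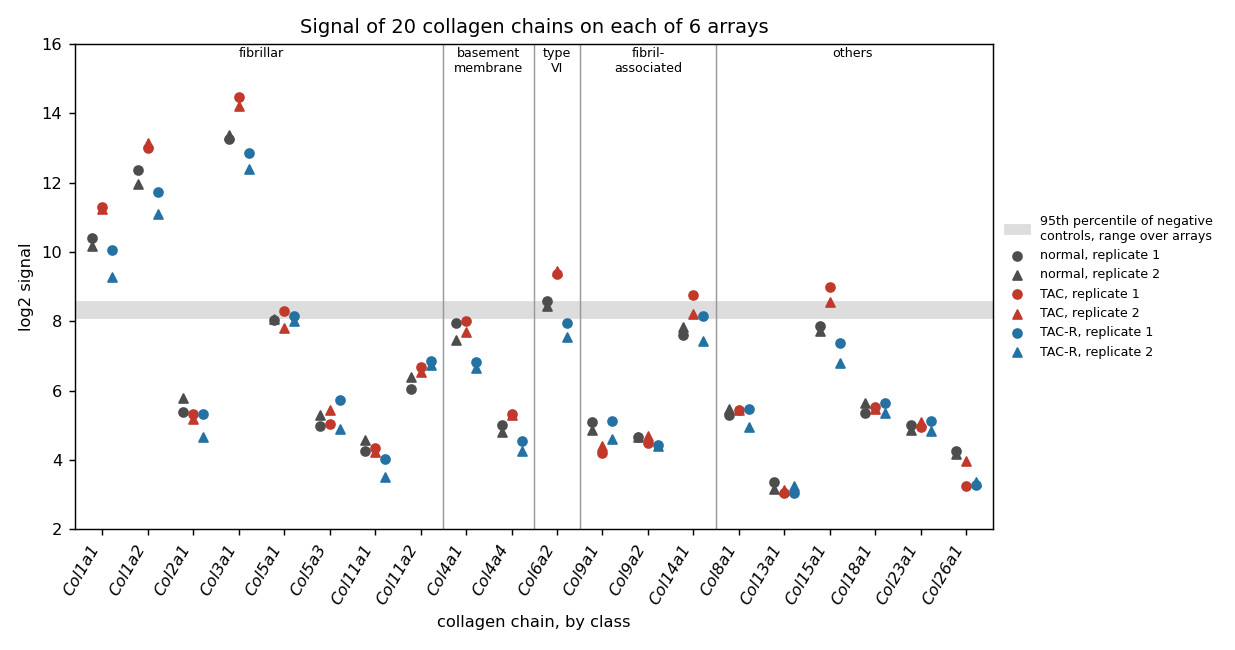
Log2 signal (vertical axis) of the 20 collagen chains (horizontal axis, by class) on each array, with circles for replicate 1 and triangles for replicate 2 and a colour per group; the grey band spans the 95th percentile of the negative controls over the arrays, 8.09 to 8.55. Col1a1, Col1a2 and Col3a1 lie above the band throughout, Col6a2, Col14a1 and Col15a1 lie above it or within it on the TAC arrays, and levels of different chains are not comparable.

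The stretches before the annotated starts of a pair of chains that fell and of a fibrillar chain whose groups overlapped are shown. The latter lay around background, and a difference in profile between these chains was not tested. Of the 20 members, 15 had an entry in the RefSeq promoter table (build GRCr8). Col1a1, Col2a1, Col3a1, Col6a2 and Col14a1 were not among them. Each stretch holds the 250 bases before the annotated start, 5′ to 3′ on the gene's strand. Capitals mark matches to a motif on either strand. The first motif is CCAAT, a binding sequence of the factor NF-Y. The second, the GC box bound by Sp1, has the letters GGGCGG. The last is the TATA box, searched as TATAAA. No matches overlap in these stretches. They are at chr4:33518307-33518556 (Col1a2), chr5:66297296-66297545 (Col15a1) and chr3:31606630-31606879 (Col5a1), all on the plus strand.
Col1a2: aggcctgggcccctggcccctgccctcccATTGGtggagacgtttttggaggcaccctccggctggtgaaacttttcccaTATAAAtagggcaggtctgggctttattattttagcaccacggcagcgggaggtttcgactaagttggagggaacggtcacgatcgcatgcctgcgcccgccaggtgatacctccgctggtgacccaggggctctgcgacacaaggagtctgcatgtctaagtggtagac
Col15a1: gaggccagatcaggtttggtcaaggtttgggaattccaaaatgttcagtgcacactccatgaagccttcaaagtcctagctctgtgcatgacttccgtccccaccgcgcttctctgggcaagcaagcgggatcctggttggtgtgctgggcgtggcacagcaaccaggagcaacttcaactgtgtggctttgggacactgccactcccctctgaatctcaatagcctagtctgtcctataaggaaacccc
Col5a1: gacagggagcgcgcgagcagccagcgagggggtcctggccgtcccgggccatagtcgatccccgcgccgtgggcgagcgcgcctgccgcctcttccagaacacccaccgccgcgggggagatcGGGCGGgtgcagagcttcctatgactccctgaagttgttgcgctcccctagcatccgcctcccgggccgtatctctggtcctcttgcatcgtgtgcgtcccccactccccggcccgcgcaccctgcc

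In the Col1a2 stretch a CCAAT match had its first base at position -221 from the start and a TATA box at position -170. The Col5a1 stretch held a GC box and no other of the motifs, and the Col15a1 stretch held none of them. Over the 15 stretches CCAAT was found in 4, the GC box in 8 and the TATA box in 2, while among 33469 stretches of the same length in the table the shares were 34.0%, 30.5% and 12.9%. The GC content was 58.4% for Col1a2, 54.0% for Col15a1 and 71.6% for Col5a1, against a median of 51.2%. Col4a1 and Col4a2, another basement membrane chain, start in opposite directions with 76 bases between their starts, and no row carried the symbol Col4a2. These matches describe the letters of the stretches and no binding was measured.

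The first comparison asked how collagen transcripts differed between hearts under TAC and normal hearts. Of the 20 chains limma called 0 higher and 0 lower, against 0.19% and 0.0647% of all rows called higher and lower. At an unadjusted p under 0.05 there were 6 chains higher and 1 lower, against 5.43% and 4.89% of all rows. The lower chain was Col9a1, in the background. The median difference of the chains was 0.09 log2 units and that of all rows was 0. The TAC arrays lay above both normal arrays for 8 chains (21.9% of all rows) and below them for 4 (21.3% of all rows).

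The second comparison set the released hearts against those under constriction. Of the 20 chains 4 were called lower and 0 higher, against 0.207% and 0.224% of all rows. The 4 became 0 without any 1 array, and in 3 other fits given below. Of the 6055 rows whose 6-array mean lay above background, 0.495% were called lower and 7.91% were lower at an unadjusted p under 0.05. At an unadjusted p under 0.05 there were 8 chains lower and 1 higher, against 6.2% and 4.79% of all rows. The higher chain was Col9a1, at signals in the background, where the lower chains Col4a1 and Col4a4 lay too. The TAC-R arrays lay below both TAC arrays for 10 chains (20.4% of all rows) and above them for 2 (20.1%). The median difference of the chains was -0.27, and that of all rows was 0. This comparison shares the TAC arrays with the first, and the third shares arrays with both.

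The third comparison set the released hearts against the normal ones. Limma called 0 chains higher and 0 lower, against 0.0604% and 0.0302% of all rows. At an unadjusted p under 0.05 there were 8 chains lower and 1 higher, the latter Col11a2, against 5.32% and 5.36% of all rows. Of the lower chains, Col4a1, Col4a4, Col11a1, Col15a1 and Col26a1 were in the background in both groups, as was Col11a2. The TAC-R arrays lay below both normal arrays for 11 chains (20.3% of all rows) and above them for 1 (20.6%). The median difference of the chains was -0.38. In 6 chains, Col1a1, Col1a2, Col3a1, Col4a4, Col6a2 and Col15a1, the groups were ordered TAC, normal, TAC-R without overlap, an order held by 2.3% of all rows and by 3.82% of the rows with a mean above background. That order was chosen for counting after the values were seen. Col4a4 was in the background on all arrays, Col15a1 on the normal and TAC-R arrays, and Col6a2 on the TAC-R arrays and 1 normal array.

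**Figure D2:**
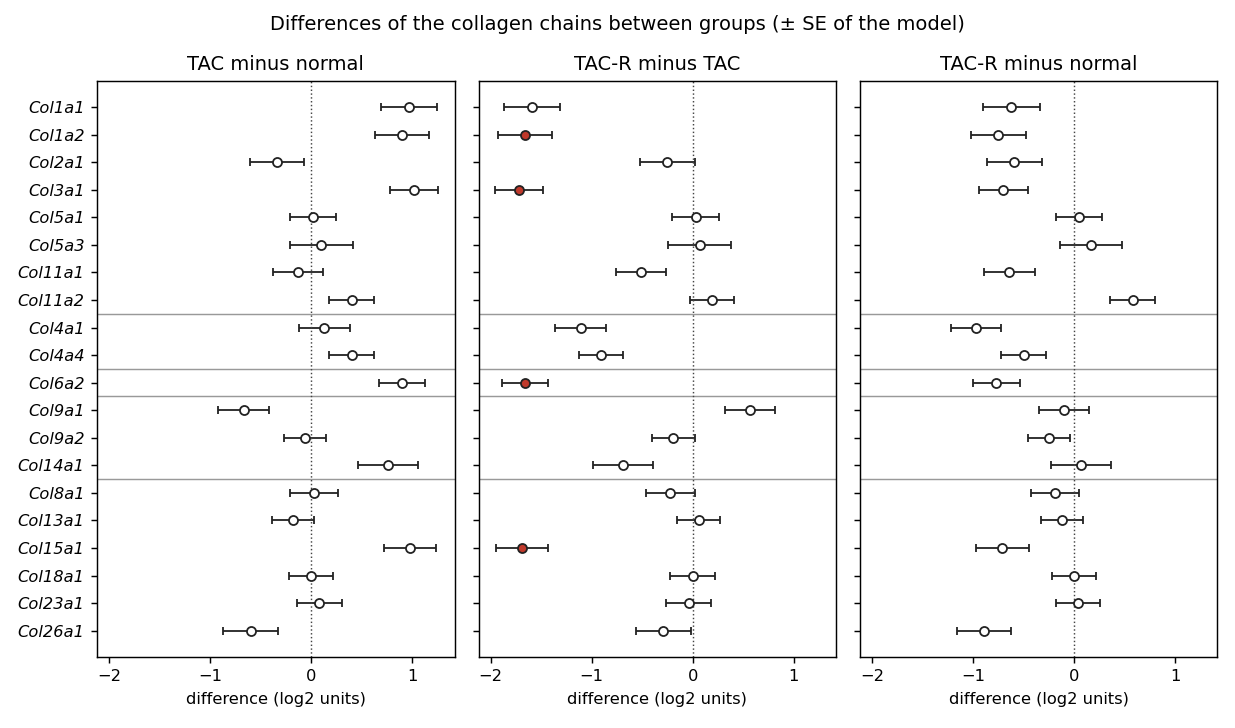
Difference in log2 units (horizontal axis) of each of the 20 collagen chains in the 3 comparisons, with bars for the standard error of the model; filled points passed an adjusted p under 0.05 and lines separate the classes. The filled points are Col1a2, Col3a1, Col6a2 and Col15a1 in the comparison of TAC-R with TAC, at differences from -1.72 to -1.66, with Col1a1 beside them at -1.59 and not passing.

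Among the fibrillar chains, Col3a1 encodes the single chain of type III collagen, which forms thin, pliable fibres in heart and vessels. Its signals were 13.26 and 13.37 on the normal arrays, 14.46 and 14.22 on the TAC arrays, and 12.85 and 12.39 on the TAC-R arrays. The groups did not overlap. From TAC to TAC-R it fell by 1.72 ± 0.24 log2 units (± SE, n = 2 each), 3.30-fold (limma, adjusted p = 0.0269). Its difference between TAC and normal was 1.02 ± 0.24 and did not pass (adjusted p = 0.208), and between TAC-R and normal it was -0.70 ± 0.24 (adjusted p = 0.371).

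Col1a2 encodes the alpha-2 chain of type I collagen, the thick and stiff fibre of scars. Its signals were 12.36 and 11.97 on the normal arrays, 13.00 and 13.13 on the TAC arrays, and 11.72 and 11.10 on the TAC-R arrays. It fell by 1.66 ± 0.27 from TAC to TAC-R, 3.15-fold (limma, adjusted p = 0.0469), with a difference of 0.90 ± 0.27 between TAC and normal (adjusted p = 0.327). Col1a1 encodes the alpha-1 chain, which pairs with the former in type I collagen. It had signals of 10.41 and 10.18 on the normal arrays, 11.29 and 11.24 on the TAC arrays, and 10.05 and 9.29 on the TAC-R arrays. The groups were in the same order without overlap, and the difference of -1.59 ± 0.28 between TAC-R and TAC lay just outside the threshold (adjusted p = 0.0607). Col1a1 passed under some alternatives, with adjusted p = 0.00438 with an intensity trend, 0.0439 with robust moderation, 0.0327 without rows below the median of means and 0.0374 without ceiling rows, which made 5 chains called lower in each, and with adjusted p = 0.0272 under a filter at background chosen after seeing the data. Between TAC and normal Col1a1 differed by 0.97 ± 0.28 (adjusted p = 0.311). The TAC-R arrays were further apart for Col1a1 than the arrays of either other group. Against normal, the TAC-R differences were -0.62 ± 0.28 for Col1a1 and -0.75 ± 0.27 for Col1a2 (adjusted p = 0.473 and 0.387).

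Col5a1 encodes the main chain of type V collagen, which starts and narrows type I fibres. Its signals were 8.03 and 8.06 on the normal arrays, 8.29 and 7.82 on the TAC arrays, and 8.16 and 8.02 on the TAC-R arrays. All groups overlapped, at signals around background, and the differences were 0.02, 0.03 and 0.05 with a standard error of 0.23 each (adjusted p = 0.991, 0.975 and 0.962). Differences of that size and error do not show that Col5a1 was constant. The other fibrillar chains lay below background on every array. Col11a2, a chain of type XI, was at 6.04 and 6.38 on the normal arrays, 6.67 and 6.53 on the TAC arrays and 6.84 and 6.73 on the TAC-R arrays, with a difference of 0.58 ± 0.22 between TAC-R and normal (adjusted p = 0.418). Col2a1, the chain of cartilage type II, ranged from 4.67 to 5.78 over the arrays, Col5a3 from 4.89 to 5.73 and Col11a1 from 3.52 to 4.57. The median difference over the 8 fibrillar chains was 0.25 between TAC and normal, -0.38 between TAC-R and TAC and -0.61 between TAC-R and normal.

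Both basement membrane chains were below background on all arrays, which leaves the size of a difference unknown. Col4a1, the common alpha-1 chain of type IV collagen in muscle and vessel basement membranes, read 7.95 and 7.47 on the normal arrays, 8.00 and 7.69 on the TAC arrays, and 6.83 and 6.66 on the TAC-R arrays. Its TAC-R values lay below the other groups, which overlapped. It did not pass in TAC-R against TAC (-1.11 ± 0.25, adjusted p = 0.143) or against normal (-0.97 ± 0.25, adjusted p = 0.269), and it differed by 0.13 ± 0.25 between TAC and normal (adjusted p = 0.889). Col4a4, a chain best known from the kidney's filter, read 5.01 and 4.82 on the normal arrays, 5.33 and 5.31 on the TAC arrays, and 4.56 and 4.26 on the TAC-R arrays. Its differences were 0.40 ± 0.22, -0.91 ± 0.22 and -0.50 ± 0.22 in the 3 comparisons as ordered above (adjusted p = 0.557, 0.168 and 0.464).

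Col6a2, the alpha-2 chain of the microfibrillar type VI collagen, was the single type VI member. Its signals were 8.59 and 8.44 on the normal arrays, 9.37 and 9.45 on the TAC arrays, and 7.94 and 7.56 on the TAC-R arrays. The groups did not overlap, and both TAC-R arrays were below background. It fell by 1.66 ± 0.23 between TAC and TAC-R (limma, adjusted p = 0.0257), which is at least 2.43-fold lower given the background. Between TAC and normal it differed by 0.90 ± 0.23 (adjusted p = 0.249). Between TAC-R and normal it differed by -0.77 ± 0.23 (adjusted p = 0.312), at least 1.31-fold lower given the background.

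Of the fibril-associated chains, Col14a1 encodes type XIV collagen, which sits on mature type I fibres. It read 7.61 and 7.84 on the normal arrays, 8.76 and 8.21 on the TAC arrays, and 8.16 and 7.43 on the TAC-R arrays, so that both TAC arrays and no others were above background. Its differences did not pass, at 0.76 ± 0.30 between TAC and normal, -0.69 ± 0.30 between TAC-R and TAC and 0.07 ± 0.30 between TAC-R and normal (adjusted p = 0.448, 0.453 and 0.959). Given the background, TAC-R was at least 1.28-fold lower than TAC, and the other differences have no measured size. Unlike the chains of types I and III, Col14a1 had overlapping TAC-R and normal arrays, though the difference between these chains was not tested. Col9a1 and Col9a2, chains of cartilage type IX, were in the background on all arrays. Col9a1 read 5.09 and 4.86 on the normal arrays, 4.20 and 4.40 on the TAC arrays and 5.13 and 4.61 on the TAC-R arrays. The Col9a1 differences were -0.67 ± 0.25, 0.57 ± 0.25 and -0.10 ± 0.25 in the same order (adjusted p = 0.414, 0.45 and 0.918). Col9a2 read 4.66 and 4.66 on the normal arrays, 4.50 and 4.70 on the TAC arrays and 4.43 and 4.39 on the TAC-R arrays, so that the TAC-R arrays lay lowest.

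Among the other chains, Col15a1 encodes type XV collagen, a proteoglycan that links basement membranes of muscle and capillaries to the matrix around them. It read 7.86 and 7.73 on the normal arrays, 8.98 and 8.57 on the TAC arrays, and 7.37 and 6.80 on the TAC-R arrays. The groups did not overlap, and the TAC arrays alone were above background. It fell by 1.69 ± 0.26 between TAC and TAC-R (limma, adjusted p = 0.0418), which is at least 1.56-fold lower given the background. It differed by 0.98 ± 0.26 between TAC and normal (adjusted p = 0.28), at least 1.21-fold given the background, and by -0.71 ± 0.26 between TAC-R and normal (adjusted p = 0.404), the latter between signals in the background.

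Col18a1, the close relative of Col15a1 whose end fragment is endostatin, read 5.36 and 5.64 on the normal arrays, 5.54 and 5.46 on the TAC arrays and 5.65 and 5.36 on the TAC-R arrays. The groups overlapped, with differences of 0.00 ± 0.22 in each comparison (adjusted p from 0.996 to 0.999). Its signals were in the background, so a change of the transcript could have gone unmeasured. Col26a1 read 4.26 and 4.16 on the normal arrays, 3.25 and 3.96 on the TAC arrays and 3.28 and 3.36 on the TAC-R arrays, with a difference of -0.89 ± 0.27 between TAC-R and normal (adjusted p = 0.314). Col8a1, a network-forming chain of vessel walls, read 5.31 and 5.48 on the normal arrays, 5.43 and 5.43 on the TAC arrays and 5.48 and 4.95 on the TAC-R arrays, again with overlap. The membrane-spanning chains Col13a1 and Col23a1 ranged from 3.04 to 3.36 and from 4.83 to 5.12. All of these were below background on every array, and none passed in any comparison (limma, adjusted p from 0.314 to 0.999).

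Limma called 0 chains lower in TAC-R against TAC whichever of the 6 arrays was left out, with adjusted p from 0.073 to 0.201 for Col3a1, 0.0835 to 0.279 for Col1a2, 0.0737 to 0.217 for Col6a2 and 0.0835 to 0.268 for Col15a1, with differences of -1.95 to -1.50 for Col3a1 and -1.97 to -1.34 for Col1a2. They were also lost with only the 2 groups in the fit, with the replicate number as a block, and with control rows kept, where Col3a1 had adjusted p = 0.0826, 0.0538 and 0.0612, whereas moderation with an intensity trend also called Col3a1 higher in TAC against normal (1.02, adjusted p = 0.0124).

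Genes that fold, process and bind collagen were listed separately. Of 15 measured genes for chain hydroxylation, glycosylation and folding, 0 were called in any comparison, with median differences of 0.23 between TAC and normal, -0.26 between TAC-R and TAC and -0.09 between TAC-R and normal. At an unadjusted p under 0.05 limma had 1 of them higher in the first comparison (5.43% of all rows), 2 lower in the second (6.2%) and 0 in the third. Plod1, a lysyl hydroxylase, differed by -0.60 ± 0.23 between TAC-R and TAC (adjusted p = 0.393), and P3h2, a prolyl 3-hydroxylase, by -0.54 ± 0.27 (adjusted p = 0.503). The glycosyltransferase gene Colgalt1 differed by -0.54 ± 0.22 (adjusted p = 0.408), at least 1.11-fold lower given the background. Plod2, in the background, differed by 0.52 ± 0.22 between TAC and normal (adjusted p = 0.468).

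Of 8 measured genes for propeptide cleavage and cross-linking, 0 were called either, with 2 higher at an unadjusted p under 0.05 in the first comparison (5.43% of all rows), 3 lower in the second (6.2%) and 1 lower in the third (5.32%). Their median differences were 0.32, -0.34 and -0.06. Loxl2, a lysyl oxidase-like cross-linking enzyme, read 8.24 and 8.43 on the normal arrays, 8.48 and 8.95 on the TAC arrays, and 7.68 and 6.63 on the TAC-R arrays. Its difference of -1.56 ± 0.34 between TAC-R and TAC did not pass (adjusted p = 0.136). Bmp1, which cleaves the C-propeptide of procollagen, differed by 1.20 ± 0.28 between TAC and normal (adjusted p = 0.204) and by -1.23 ± 0.28 between TAC-R and TAC (adjusted p = 0.143). Loxl1, another cross-linking enzyme, differed by 0.99 ± 0.23 and -1.03 ± 0.23 (adjusted p = 0.209 and 0.143), and Tll1, a relative of Bmp1 in the background, by 0.51 ± 0.24 and -0.35 ± 0.24 (adjusted p = 0.509 and 0.658). For Bmp1, Loxl1 and Loxl2 the normal and TAC-R arrays lay below background and the TAC arrays above it. TAC-R was therefore at least 1.15-fold, 1.62-fold and 1.50-fold lower than TAC. Against normal, TAC was at least 1.26-fold higher for Loxl1, and for Bmp1 no bound can be given.

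Of 12 measured matrix proteins that bind or regulate collagen fibrils, 1 was called, Fn1, lower in TAC-R against TAC (0.207% of all rows). At an unadjusted p under 0.05 limma had 6 higher in the first comparison (5.43% of all rows), 9 lower in the second (6.2%) and 4 lower in the third (5.32%). Fibronectin, the product of Fn1, is laid down before collagen and guides fibril assembly. Fn1 read 9.38 and 9.56 on the normal arrays, 10.39 and 10.40 on the TAC arrays, and 9.05 and 8.18 on the TAC-R arrays, and it fell by 1.78 ± 0.29 between TAC and TAC-R (limma, adjusted p = 0.0496). This call was lost without any 1 of the arrays (adjusted p from 0.0556 to 0.279), with quantile normalization (0.0571), with only the 2 groups in the fit (0.123), with the replicate block (0.0954) and with control rows kept (0.095). The median difference of this list was 0.46 between TAC and normal, -0.93 between TAC-R and TAC and -0.37 between TAC-R and normal. The small proteoglycan gene Prelp differed by 1.22 ± 0.39 and -1.90 ± 0.39 in the first 2 comparisons (adjusted p = 0.365 and 0.111), and Bgn, for biglycan, by 1.11 ± 0.30 and -1.05 ± 0.30 (adjusted p = 0.289 and 0.24). Lum, for lumican, differed by -1.24 ± 0.25 in the second (adjusted p = 0.104). Postn, for periostin, was in the background throughout and differed by 1.74 ± 0.43 and -1.70 ± 0.43 (adjusted p = 0.245 and 0.184).

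Of 7 measured collagen receptor genes, 0 were called in any comparison. At an unadjusted p under 0.05 limma had 3 lower in the first comparison (4.89% of all rows), 1 higher and 1 lower in the second (4.79% and 6.2%) and 0 in the third. The median differences were -0.52, 0.33 and -0.18. Ddr2, a collagen-activated kinase of fibroblasts, differed by -1.03 ± 0.26 between TAC-R and TAC (adjusted p = 0.178), and Itga1, an integrin subunit, by -0.73 ± 0.32 between TAC and normal (adjusted p = 0.476). Ddr1 and Itga10 lay in the background on all arrays, with differences of -0.65 ± 0.24 between TAC and normal and 0.73 ± 0.32 between TAC-R and TAC (adjusted p = 0.427 and 0.446).

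**Figure D3:**
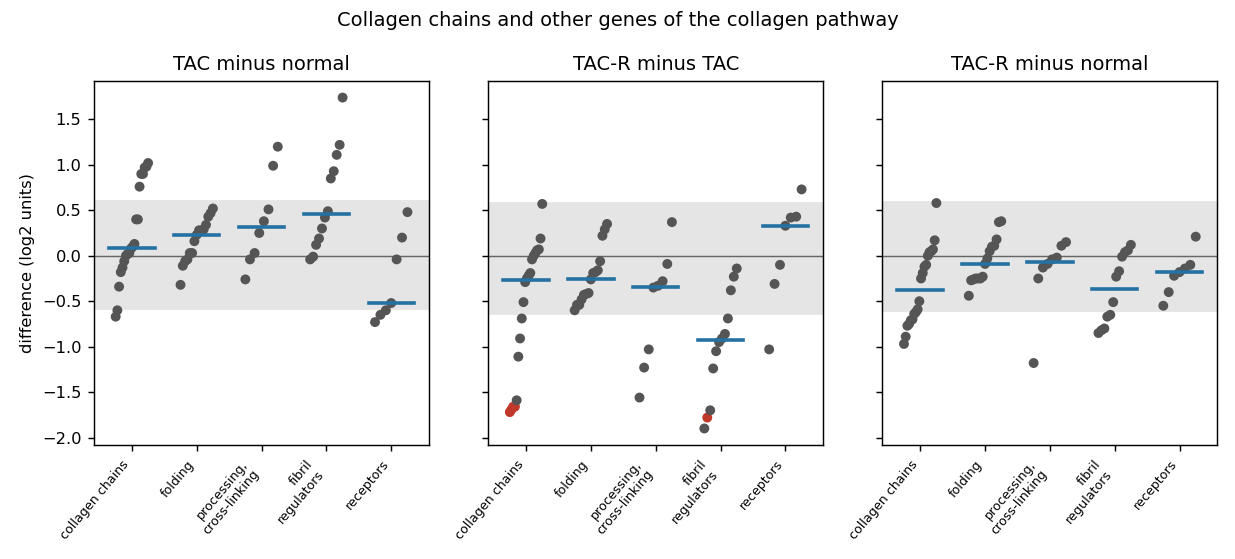
Differences in log2 units (vertical axis) of the 20 collagen chains and of 4 lists of other genes of the collagen pathway in the 3 comparisons; points are genes, red points passed an adjusted p under 0.05, blue bars are list medians, and grey bands span the 5th to 95th percentile of all rows. Between TAC-R and TAC the median lies at -0.93 for the 12 fibril regulators and at -0.27 for the chains, whose lowest points form a cluster at and below -1.59.

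Markers of other cells moved with the groups as well, and their part in the collagen differences was not tested. For each list the deviation of a gene from its own 6-array mean was taken, and the median over the list is given. For 9 measured fibroblast markers it was -0.04 and -0.10 on the normal arrays, 0.36 and 0.37 on the TAC arrays, and -0.22 and -0.39 on the TAC-R arrays. By gene, 3 of the 9 held the order TAC, normal, TAC-R without overlap (2.3% of all rows). Pi16, in the background, had its highest signal, 6.80, on a TAC-R array. None of the fibroblast markers was called by limma in any comparison, with 8 of 9 lower in TAC-R against TAC at an unadjusted p under 0.05 (6.2% of all rows). Their mean level was 9.77 to 9.91 on the normal arrays, 10.24 to 10.31 on the TAC arrays and 9.43 to 9.63 on the TAC-R arrays. The 8 endothelial markers had medians of 0.08 and 0.22, 0.28 and 0.20, and -0.24 and -0.59 in the same order of groups, and the 8 pericyte and smooth muscle markers -0.01 and 0.01, 0.59 and 0.31, and -0.18 and -0.39. Of those lists 1 gene was called, Cnn1, a smooth muscle gene in the background, higher in TAC against normal (0.19% of all rows). At an unadjusted p under 0.05 limma had 6 endothelial and 5 pericyte and smooth muscle markers lower in TAC-R against TAC (6.2% of all rows).

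Atrial markers were uneven within the TAC-R group. The 7 atrial markers had a median of 1.97 on TAC-R replicate 1 and 0.14 on replicate 2, against -0.53 to -0.24 on the other arrays. Myl7, the atrial light chain, read 14.30 and 12.54 on the TAC-R arrays against 7.48 to 8.43 elsewhere. Of the 7 markers, 6 had a higher mean in TAC-R against TAC and 6 against normal (11716 and 11692 of all 23188 rows). Limma called Myl7 higher in both (0.224% and 0.0604% of all rows). Dkk3 differed by -0.63 ± 0.21 against TAC and 0.13 ± 0.21 against normal (limma, adjusted p = 0.326 and 0.868). Stard10 differed by 0.10 ± 0.26 and -0.55 ± 0.26 (adjusted p = 0.93 and 0.498). Bmp10 and Sln lay in the background on all arrays, and Myl4 rose above it on 1 array. TAC-R replicate 2 had the lower signal of the pair for 18 of the 20 collagen chains, although 49.9% of all rows were lower on it. Without TAC-R replicate 1, the array with the most atrial signal, the differences between TAC-R and TAC were -1.95 for Col3a1 and -1.97 for Col1a2. Without replicate 2 they were -1.50 and -1.34. Col6a2 and Col15a1 were below background on both TAC-R arrays, so no such size is given for them.

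The 8 red cell markers had medians of -1.18 and -0.80 on the normal arrays, 1.19 and 1.01 on the TAC arrays and -0.14 and -0.02 on the TAC-R arrays. Of these genes 5 were called higher in TAC against normal (0.19% of all rows), 3 lower in TAC-R against TAC (0.207%) and 1 higher in TAC-R against normal (0.0604%). The 8 macrophage markers had medians of -0.17 and -0.33, 0.32 and 0.26, and -0.02 and -0.09, and the 7 myofibroblast markers of -0.14 and 0.07, 0.10 and 0.21, and 0.00 and -0.25. Of the myofibroblast markers 1, Acta2, rose above background on any array. The 6 cartilage, 4 Schwann cell and 4 adipocyte markers measured were below background on every array, and 0 of them were called. The ventricular markers Actc1, Mb, Myl3 and Pln were at the ceiling of the deposited scale, 19.9315, on all arrays. Of 7 measured ventricular markers Myh7, the slow myosin heavy chain, was called lower in TAC against normal (0.0647% of all rows) and higher in TAC-R against TAC (0.224%). It read 17.87 and 17.76 on the TAC arrays and lay at or next to the ceiling on the others, so its differences are lower bounds.

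The groups are named by their labels. Nppb, for the natriuretic peptide that stretched heart muscle releases, read 16.05 and 15.72 on the normal arrays, 13.57 and 13.88 on the TAC arrays, and 16.91 and 17.23 on the TAC-R arrays. It fell in TAC against normal (-2.16 ± 0.24, adjusted p = 0.0118), so this marker of load was lowest where the labels place the load. It was 1 of 5 load markers, with Nppa, Myh7, Acta1 and Ankrd1. The TAC arrays lay below both normal arrays for all 5 (21.3% of all rows), and limma called 2 lower (0.0647%). The TAC-R arrays lay above both TAC arrays for all 5 (20.1% of all rows), and 3 were called higher (0.224%). Every direction given for the collagens is therefore a difference between the arrays labelled so.

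**Figure D4:**
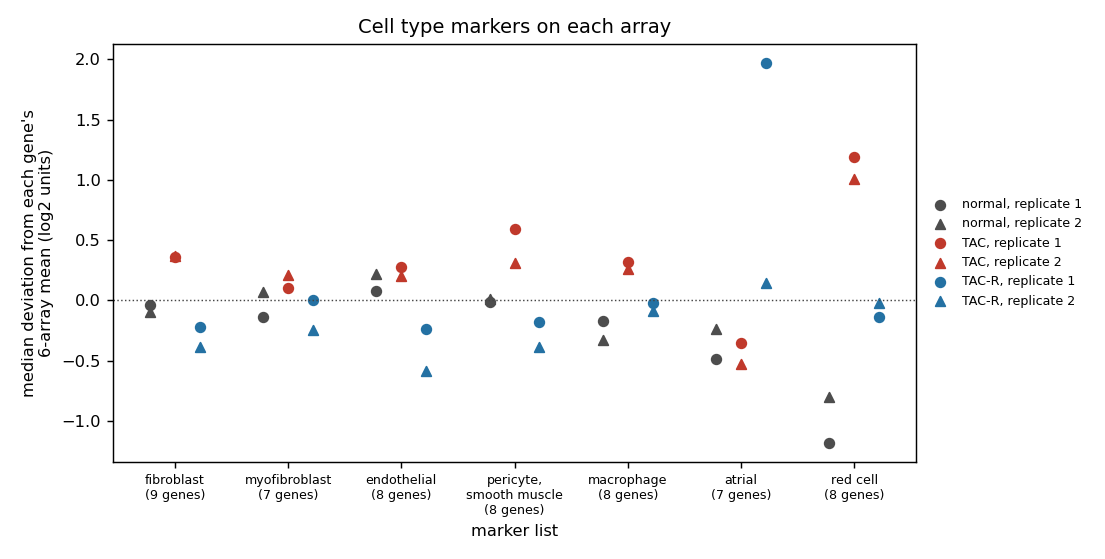
Median deviation of each marker list from its genes' 6-array means in log2 units (vertical axis) on each array, by list (horizontal axis); circles are replicate 1, triangles replicate 2, and colours are groups. The fibroblast list lies at 0.36 and 0.37 on the TAC arrays and below 0 on the others, and the atrial list stands at 1.97 on TAC-R replicate 1.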

How the data were processed

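RNA of whole rat hearts was measured on 6 single-channel arrays in 3 groups of 2. The authors deposited log2 signals, made per the labels by robust multi-array averaging in Expression Console with a core-exon analysis; its version and its background correction: not given in the sources used here. Such averaging equalises the arrays' distributions and would hide a change common to all transcripts.

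Of 24834 rows, 1646 control rows were left out. The platform table (whose symbols matched RefSeq for all 20 chains) named 15049 of the 23188 tested. limma 3.58.1 (R 4.3.3) fitted 1 mean per group to all rows and arrays (3 residual degrees of freedom, prior 5.71) with empirical Bayes moderation, without covariates, and rows were called at a Benjamini-Hochberg adjusted p under 0.05. The procedure was tested on simulated data. The smallest p that exact two-sided permutation of 2 against 2 allows is 0.33.

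Chains, classes and lists were chosen with earlier results of these data known. All chains are named; values on every array are given for Col1a1, Col1a2, Col3a1, Col5a1, Col4a1, Col6a2, Col8a1, Col14a1, Col15a1 and Col18a1 (Col5a2, Col4a2, Col6a1, Col6a3 and Col12a1 were listed too and had no named row), for called chains, and for the largest difference of each class in each comparison. Pathway genes are named where called, with up to 4 more per list by size of difference. Lum, Dcn, Postn and Cthrc1 stand in a pathway list and a marker list, and Col2a1 is also a cartilage marker. Alternatives were the moderation, filters on dim, control and ceiling rows, quantile normalization, the arrays in the fit, the replicate block and leaving out each array, also run for Fn1 after seeing the data.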

Additional observations from a re-analysis of the deposited data

How the results depend on the processing

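The number of rows called (59 in TAC against normal, 100 in TAC-R against TAC, 21 in TAC-R against normal) became 170, 344 and 156 with an intensity trend, 35, 37 and 12 with only the 2 groups compared in the fit, and 38, 41 and 9 with control rows kept. Replicate 2 minus replicate 1 correlated between groups at -0.01 to 0.01 over all rows, 70.5% of them above background on no array. This cannot decide whether arrays with the same number were paired. With the replicate number as a block (replicate block) 36, 47 and 11 rows were called. In that fit the number of chains called lower in TAC-R against TAC went from 4 to 0. That number of chains was also 0 with only the 2 groups, with control rows kept and without any 1 array. Leaving out each array gave 0 to 35, 4 to 37 and 0 to 12 rows called. Without rows below the median of means, 187 and 68 rows were called in the latter comparisons, and without ceiling rows 37 in TAC-R against normal. A filter at background, chosen after seeing the data, gave 203 and 53. With an intensity trend 1 chain, Col3a1, was called higher in TAC against normal. The median over the chains was 0.76, -1.11 and -0.62 in the 11 chains above the median of means and 0.94, -1.66 and -0.72 in the 4 whose 6-array mean was above background, since fewer chains enter. Of the latter, Col6a2 was above background on 3 arrays, none of them TAC-R, and passed on its normal and TAC signals. Without single arrays the median over all 20 chains ranged from 0.08 to 0.15, -0.53 to -0.21 and -0.55 to -0.24. The causes of the other shifts were not tested.

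Quantile normalization turned the sign of Col5a1 (-0.11) and Col9a2 (0.02) in TAC against normal and of Col5a1 in TAC-R against normal (-0.02). Leaving out single arrays turned the sign of chains whose differences were small and not called. In TAC against normal the ranges were -0.22 to 0.25 for Col5a1, -0.11 to 0.30 for Col5a3, -0.29 to 0.03 for Col11a1, -0.11 to 0.38 for Col4a1, -0.16 to 0.04 for Col9a2, -0.06 to 0.12 for Col8a1 and -0.14 to 0.14 for Col18a1. In TAC-R against TAC they were -0.58 to 0.07 for Col2a1, -0.20 to 0.27 for Col5a1, -0.35 to 0.49 for Col5a3, -0.48 to 0.05 for Col8a1, -0.04 to 0.17 for Col13a1, -0.15 to 0.15 for Col18a1, -0.19 to 0.10 for Col23a1 and -0.64 to 0.07 for Col26a1. In TAC-R against normal they were -0.02 to 0.12 for Col5a1, -0.25 to 0.59 for Col5a3, -0.36 to 0.16 for Col9a1, -0.29 to 0.44 for Col14a1, -0.45 to 0.08 for Col8a1, -0.14 to 0.15 for Col18a1 and -0.11 to 0.19 for Col23a1. Taking the dimmer row of a gene was not run, since every chain had 1 row. Signals in the background limit what can be measured for 13 chains.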
